A study of Saccharomyces cerevisiae with 6 samples.

Results

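The DNA replication machinery of budding yeast was followed through 44 genes, out of 5449 Saccharomyces cerevisiae genes measured on the arrays. Membership was set by gene name, with earlier results of these data known, and each of the 44 genes was measured by a probe set of its own that the annotation pairs with no other gene. They were ordered by what their products do at an origin and at a fork: 7 genes of origin licensing, 11 of the replicative helicase, 4 of helicase activation, 11 of the replicative polymerases, 6 of the sliding clamp and its loader, 3 of the single-strand binding complex and 2 of Okazaki fragment maturation. The 3 cultures of the treated group grew in rich medium with 80 µM clioquinol (CQ), a hydroxyquinoline drug that binds copper, zinc and iron ions. The 3 cultures of the control group grew in the same medium with 1% dimethyl sulfoxide (DMSO). RNA was taken after 5 h from 1 culture per array. All cultures were of BY4742, a haploid laboratory strain of mating type alpha that carries deletions at HIS3, LEU2, LYS2 and URA3. The DMSO content of the CQ cultures is not given, so CQ and its solvent cannot be told apart.

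In a dividing yeast cell the origin recognition complex (ORC) sits on origins and, with Cdc6 and Cdt1, loads the ring of Mcm proteins as an inactive helicase while the cell is in G1. At the start of S phase kinases act with Sld2, Sld3 and Dpb11 to bring Cdc45 and the GINS complex to the ring, which then unwinds the DNA. DNA polymerase alpha with its primase lays down primers, polymerase epsilon copies mainly the leading strand and polymerase delta the lagging strand, both held on DNA by the clamp PCNA, which replication factor C loads. Many of these genes are transcribed in a wave around the G1 to S transition, so in unsynchronised cultures their level also follows the share of cells at each phase. In bulk RNA, fewer cells of a phase and less RNA per cell cannot be told apart.

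The 6 arrays carried linear intensities that were never negative, with medians over the genes of 977 to 1008 on the CQ arrays and 890 to 926 on the DMSO arrays (889.7 the lowest). All 44 replication genes lay above the background level on all 6 arrays, with intensities between 70.5 and 1765; the background level, set at the 95th percentile of probe sets for fission yeast genes on the same array, was 41.8 to 59.8. Pearson correlations across genes were 0.980 to 0.993 among CQ arrays and 0.995 to 0.997 among DMSO arrays. CQ replicate 2 was the CQ array farthest from the CQ mean for 26 of the 44 replication genes. The same count was not made over all genes, so it is not shown to be particular to the replication genes. The median SD of log2 values over the CQ arrays was 0.136 for the replication genes and 0.134 for all genes. The 3' to 5' index, a log2 ratio of control probe sets at the ends of 6 transcripts that tracks RNA integrity, was 1.30, 1.53 and 1.15 on the CQ arrays and 0.96, 0.96 and 0.88 on the DMSO arrays. Every CQ array lay above every DMSO array on this index, so index and treatment cannot be fully separated. Values given below with the index in the model show dependence on it and are not effects corrected for RNA quality. LEU2, LYS2 and URA3 read 58.6 or less on every array, and HIS3, of which the strain keeps a part, averaged 881 ± 209 with CQ and 1598 ± 92.1 with DMSO (SD, n = 3 each).

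Replication genes were neither raised nor lowered as a block after 5 h of CQ, and 6 of the 9 roles held genes of both directions. That split was not set against other gene lists, and both directions were common over all genes. It also varied with the treatment of the data. Polymerase alpha and primase had 0 genes higher with arrays centred on their median, and helicase activation had 0 lower with the 3' to 5' index in the model. Of the 44 genes 19 rose, 10 fell and 15 did not pass the test, by limma with Benjamini-Hochberg adjustment over all 5449 genes and a threshold of 0.05. Over all genes 36.1% rose and 31.9% fell, 68.0% together, so the share of replication genes that passed, 65.9%, was near that of the array. Differences are given as the mean log2(intensity + 16) with CQ minus that with DMSO, with the standard error of the moderated fit. Their median was 0.21 for the replication genes and 0.02 for all genes, and with each array centred on its own median the figures became 0.07 and -0.11. That centring gave 16 replication genes higher and 14 lower, and over all genes 1578 higher and 2211 lower, against 1969 and 1739 without it.

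Large changes were few. ORC4 and DPB3 rose at least 2-fold and CDC6 fell at least 2-fold, against 9.71% and 7.51% of all genes that passed and rose or fell by that much. CQ arrays lay wholly above the DMSO arrays for 21 replication genes, where the share over all genes was 38.6%, and wholly below them for 12, where it was 35.1%; without regard to direction the share over all genes was 73.7%. The spread of the differences was 0.59 (SD) among the replication genes and 0.80 among all genes. Of the 29 genes that passed, 17 kept the call in the same direction under all of 18 alternative treatments of the data, 11 of them higher and 6 lower.

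**Figure D1:**
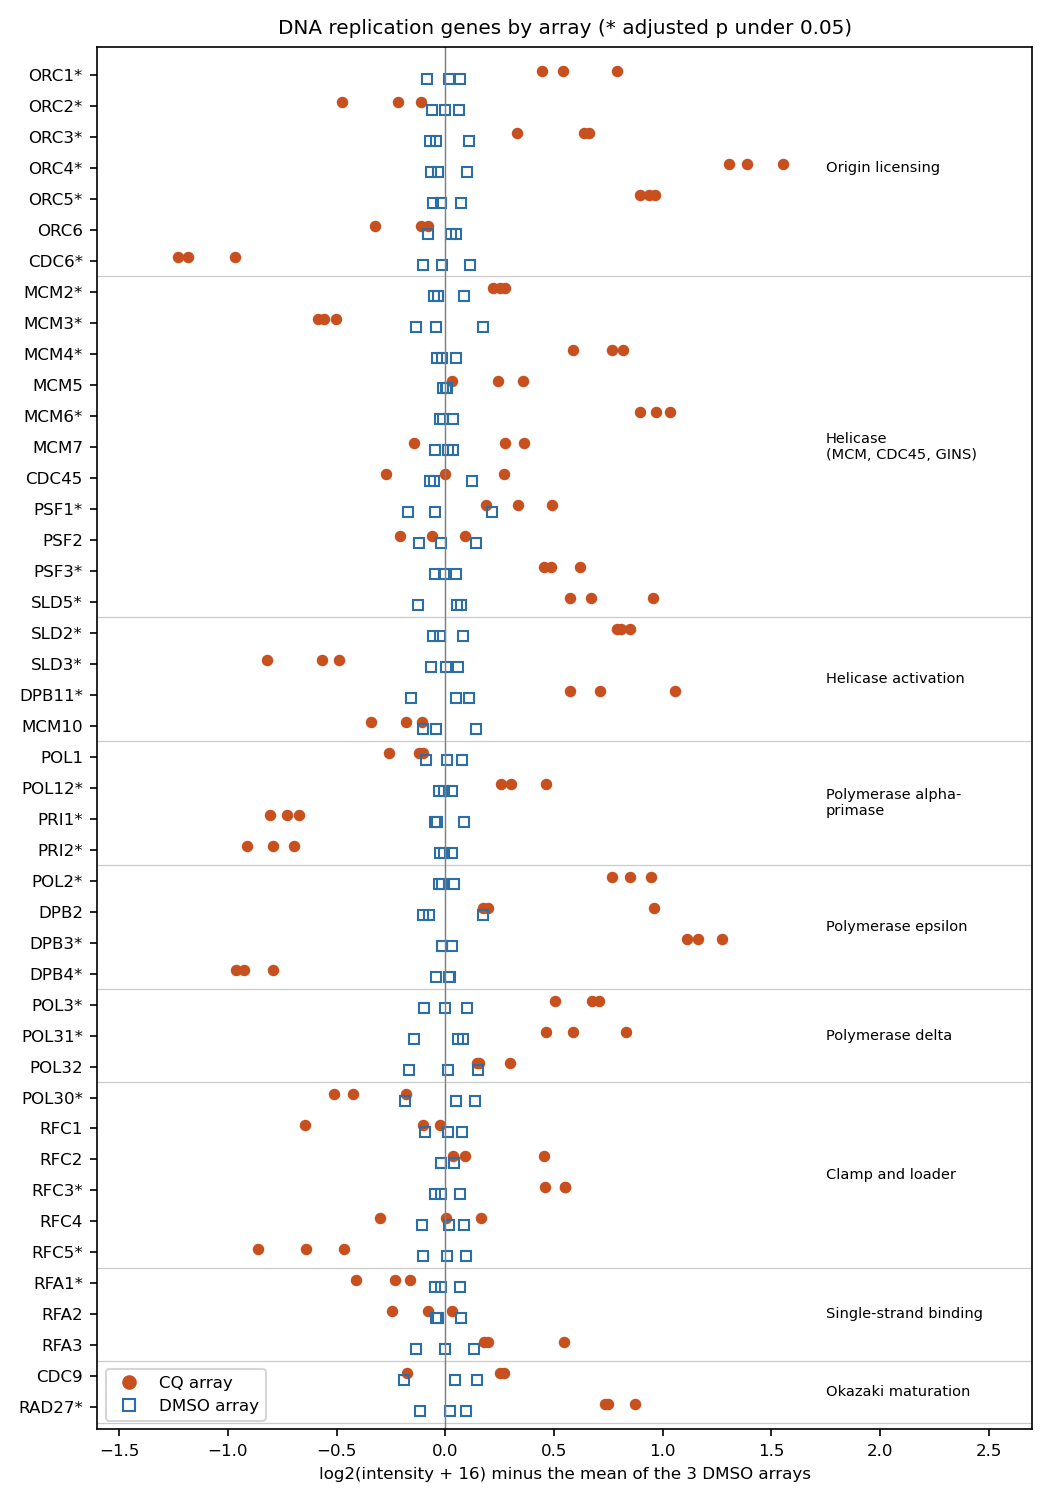
Each row is 1 replication gene, grouped by role, and each point is 1 array: filled circles CQ, open squares DMSO, on the scale log2(intensity + 16) minus the mean of the 3 DMSO arrays, with an asterisk on genes whose adjusted p was under 0.05. CQ points lie on both sides of 0 within most roles, from CDC6 (log2 difference -1.13) to ORC4 (1.42).

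Within origin licensing, 4 of the 6 ORC subunit genes rose while the gene of their partner CDC6 had the largest decrease among all 44. Over all genes of the array 36.1% rose and 31.9% fell. ORC4 (YPR162C), which encodes an AAA+ family subunit of the complex, read 563, 632 and 530.3 on the CQ arrays, against 221, 195 and 200.1 on the DMSO arrays. Every CQ value was more than the highest DMSO value, and the difference was 1.42 ± 0.09 (adjusted p = 7.23e-06). CDC6 (YJL194W), the ATPase that joins ORC to load the Mcm ring, read 103, 99.2 and 122 with CQ and 236, 276 and 251 with DMSO. Its 3 CQ arrays all lay below its DMSO arrays, by -1.13 ± 0.10 (adjusted p = 2.87e-05).

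ORC5 (YNL261W), an ATP-binding subunit, rose by 0.93 ± 0.07, with 427, 440.4 and 449 on the CQ arrays and 234, 214 and 219 on the DMSO arrays. ORC1 (YML065W), the ATPase subunit that also serves silencing, rose by 0.59 ± 0.10, and ORC3 (YLL004W), a subunit of the core ring, by 0.54 ± 0.11. With the 3' to 5' index in the model ORC3 was at 0.85. The ORC1 difference was 0.22 and did not pass once the trend of the differences with coding length was taken out. ORC2 (YBR060C), also of the core, fell by a small margin, -0.27 ± 0.10 with an adjusted p of 0.0497, and was at -0.16 (adjusted p = 0.0841) without CQ replicate 2; it lost its call in 9 of the 18 alternatives. ORC6 (YHR118C), the subunit that binds Cdt1, stood at -0.17 ± 0.09 and did not pass. Its CQ arrays all lay below its DMSO arrays, and with arrays centred on their median it passed at -0.31 (adjusted p = 0.0191). The 6 ORC genes thus ran from -0.27 to 1.42, with a median of 0.57.

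Of the 11 helicase genes 6 rose, 1 fell and 4 did not pass, where over all genes 36.1% rose and 31.9% fell. The Mcm ring is built of 6 related ATPases in equal numbers, yet their genes differed in direction. MCM6 (YGL201C) read 267, 242 and 255 with CQ and 121, 126 and 120.3 with DMSO, about the same on all arrays of a group, and rose by 0.97 ± 0.07 (adjusted p = 1.44e-05). MCM4 (YPR019W), whose N-terminal tail is a target of the kinase Cdc7, rose by 0.73 ± 0.09: its values were 1111, 977 and 1150.4 with CQ and 669, 638 and 629 with DMSO. MCM3 (YEL032W) went the other way, with 609, 573 and 586 on the CQ arrays, all below the 791, 982 and 842 of the DMSO arrays (-0.55 ± 0.09, adjusted p = 0.00116).

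MCM2 (YBL023C) rose by 0.25 ± 0.07, a call that was lost in 7 of the 18 alternatives, among them centring on the array median (0.11) and removal of the coding-length trend (-0.09). MCM5 (YLR274W) and MCM7 (YBR202W) did not pass, at 0.21 ± 0.10 and 0.16 ± 0.13. Both had their lowest CQ value on CQ replicate 2, and without that array MCM5 rose by 0.30 (adjusted p = 0.00573) and MCM7 by 0.32 (adjusted p = 0.0046); with the coding-length trend removed they stood at -0.05 and -0.16. The same removal put MCM6 at 0.52, MCM4 at 0.34 and MCM3 at -0.96, each still past the threshold. The contrast between MCM6 and MCM3 was 1.51 on the log2 scale, being -1.16 on average with CQ and -2.67 with DMSO for the log2 ratio of MCM6 to MCM3 within an array. Its exact two-sided permutation p was 0.1, the smallest that 3 against 3 arrays allow. Since each gene already had its groups apart, in opposite directions, that p was fixed in advance and adds nothing.

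The GINS ring, which clamps Cdc45 to the Mcm proteins, had 3 of its 4 genes higher, and 1 with the 3' to 5' index in the model. Of all 5449 genes 36.1% rose, and 1596 were higher with the index. SLD5 (YDR489W) rose by 0.73 ± 0.11, with 378, 464 and 353 on CQ arrays and 244, 211 and 241 on DMSO arrays, although with the 3' to 5' index in the model it was 0.37 and did not pass. PSF3 (YOL146W) rose by 0.52 ± 0.08 and kept its call throughout. PSF1 (YDR013W), at 0.34 ± 0.12 (adjusted p = 0.0384), had overlapping groups and was at 0.26 (adjusted p = 0.0808) without CQ replicate 2. The PSF1 call was lost in 8 of the 18 alternatives, among them centring on the array median (0.20). PSF2 (YJL072C) stood at -0.06 ± 0.11 and CDC45 (YLR103C) at -0.00087 ± 0.14, neither past the threshold; the CDC45 value was 0.51 (adjusted p = 0.041) with the index as a covariate.

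Among the genes whose products activate the helicase, SLD2 and DPB11 rose and SLD3 fell. Sld2 and Sld3 are the essential targets of the S-phase cyclin-dependent kinase and Dpb11 is the scaffold that binds both once they carry phosphate. SLD2 (YKL108W) read 142, 146 and 139.7 with CQ and 70.5, 72.5 and 79.2 with DMSO, and rose by 0.82 ± 0.07 (adjusted p = 3.43e-05). DPB11 (YJL090C) read 641, 579.8 and 817 with CQ and 415, 343 and 398 with DMSO, with CQ replicate 3 the highest, and rose by 0.78 ± 0.13, or by 1.26 with the 3' to 5' index in the model. SLD3 (YGL113W) fell by 0.62 on the log2 scale (standard error 0.10), at 318, 265 and 337 with CQ against 481, 458 and 499 with DMSO; with the index as a covariate it was -0.26 and did not pass. MCM10 (YIL150C), a factor needed for unwinding to begin, was at -0.21 ± 0.10 and did not pass. Its CQ arrays all lay below its DMSO arrays. With arrays centred on their median it passed at -0.34 (adjusted p = 0.0132), and with the length trend removed at -0.29 (adjusted p = 0.0304). With the index as a covariate MCM10 was at -0.07 and did not pass.

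Both primase genes fell: PRI1 (YIR008C), the catalytic subunit that makes the RNA primer, read 360.2, 340.2 and 374 with CQ and 645, 591 and 587 with DMSO (-0.74 ± 0.08, adjusted p = 7.81e-05). PRI2 (YKL045W), the large subunit, read 376, 344 and 403 with CQ and 677, 659 and 651 with DMSO (-0.80 ± 0.08, adjusted p = 6.13e-05). In both the highest CQ array was far below the lowest DMSO array, and both kept their call under all 18 alternatives. POL12 (YBL035C), the regulatory B subunit, rose by 0.34 ± 0.08, but did not pass with arrays centred on their median (0.21), with the index as a covariate (0.13) or with the length trend removed (0.14). POL1 (YNL102W), the catalytic subunit, was at -0.16 ± 0.08 and did not pass; its CQ arrays all lay below its DMSO arrays, and with arrays centred on their median it fell by 0.30 on the log2 scale (adjusted p = 0.015). It is the longest of the replication genes after POL2, and with the coding-length trend removed it stood at -0.83 (adjusted p = 6.38e-05).

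Polymerase epsilon held the widest contrast within a complex of the 44 genes. DPB3 (YBR278W) and DPB4 (YDR121W) encode small histone-fold subunits that pair with each other, and moved in opposite directions. DPB3 read 1188, 1100.2 and 1062 with CQ and 477, 492 and 477 with DMSO, a rise of 1.18 ± 0.07 (adjusted p = 6.5e-06). DPB4 read 484, 440.1 and 428 with CQ and 861, 865 and 826 with DMSO (-0.89 ± 0.08, adjusted p = 2.75e-05). The log2 ratio of DPB3 to DPB4 was 1.27, 1.29 and 1.28 on the CQ arrays and -0.83, -0.79 and -0.77 on the DMSO arrays, a shift of 2.08 that centring of the arrays cannot alter. Here too the exact two-sided permutation p of 0.1, the smallest possible, was fixed in advance by the opposite directions of the 2 genes.

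POL2 (YNL262W), the catalytic subunit, read 582, 623 and 548 with CQ and 326, 312 and 309.8 with DMSO and rose by 0.85 ± 0.08. It is the longest of the replication genes, and with the coding-length trend removed its difference was -0.02 (adjusted p = 0.8). DPB2 (YPR175W), the essential subunit that ties the polymerase to GINS, was at 0.44 ± 0.21 and did not pass. Its CQ values were 524, 899 and 515, against 515, 423 and 431 with DMSO, so that CQ replicate 2 alone was high; without it the difference was 0.19.

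Polymerase delta had 2 of its 3 genes higher, where 36.1% of all genes rose. POL3 (YDL102W), the catalytic subunit with proofreading activity, read 566, 501 and 579.9 with CQ and 348, 374 and 325 with DMSO (0.63 ± 0.09). POL31 (YJR006W), its essential partner, read 525, 684 and 575 with CQ and 339.9, 400.3 and 393 with DMSO (0.63 ± 0.11). In both the groups were apart on every array. POL3 did not pass with the length trend removed (0.14, adjusted p = 0.21) and POL31 did not with the index as a covariate (0.38, adjusted p = 0.145). POL32 (YJR043C), the subunit dispensable for growth, stood at 0.20 ± 0.10, with overlapping groups.

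Clamp and clamp loader genes showed smaller differences with no common direction, 1 higher, 2 lower and 3 not past the threshold. POL30 (YBR088C), which encodes PCNA, read 671, 848 and 715 with CQ and 997, 1061 and 847 with DMSO; CQ replicate 2 overlapped the lowest DMSO array, and the difference was -0.37 ± 0.12 (adjusted p = 0.0226). That call was lost in 5 of the 18 alternatives, in 4 of which 1 array other than CQ replicate 2 was left out. With the index in the model POL30 stood at -0.72. RFC5 (YBR087W) fell by 0.66 on the log2 scale, with 252, 222 and 188 on CQ arrays and 379.8, 328 and 356 on DMSO arrays (adjusted p = 0.00116). RFC3 (YNL290W) rose by 0.52 ± 0.07, with 501, 469 and 501 on CQ arrays and 332, 354 and 325 on DMSO arrays.

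Rfc3 and Rfc5 are both small subunits of the same loader, and the log2 ratio of RFC3 to RFC5 averaged 1.11 with CQ and -0.07 with DMSO. RFC2 (YJR068W) at 0.19 ± 0.12 and RFC4 (YOL094C) at -0.04 ± 0.12, the remaining small subunits, did not pass. RFC1 (YOR217W), the large subunit, was at -0.26 ± 0.16 and did not pass. CQ replicate 2 read 329 there, the other CQ arrays 485 and 515 and the DMSO arrays 489 to 554. Without CQ replicate 2 the RFC1 difference was -0.06. With arrays centred on their median it passed at -0.39 (adjusted p = 0.0475), and with the length trend removed at -0.59 (adjusted p = 0.0113). With the index in the model it was 0.42 (adjusted p = 0.0505).

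The single-strand binding complex RPA, which coats unwound DNA, had differences of 0.31 or less in size. RFA1 (YAR007C), the large subunit, read 946, 1125 and 1073 with CQ and 1219.6, 1324 and 1245 with DMSO, and fell by 0.27 on the log2 scale (adjusted p = 0.0259); 4 of the 18 alternatives ended that call. RFA3 (YJL173C), the smallest subunit, read 1309, 1675 and 1293 with CQ and 1142, 1253 and 1039.9 with DMSO, a difference of 0.31 ± 0.12 whose adjusted p of 0.0528 missed the threshold. RFA2 (YNL312W), the middle subunit, was at -0.10 ± 0.09, with overlapping groups.

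Of the genes that finish Okazaki fragments, RAD27 (YKL113C), the flap nuclease that trims primers, read 449.8, 446 and 492 with CQ and 280.0, 266 and 239.8 with DMSO. It rose by 0.79 ± 0.09 (adjusted p = 9.09e-05) and passed under all 18 alternatives. CDC9 (YDL164C), the ligase that seals the nicks, read 717, 523 and 709 with CQ and 656, 611 and 518 with DMSO. Its groups overlapped, with a difference of 0.12 ± 0.14.

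**Figure D2:**
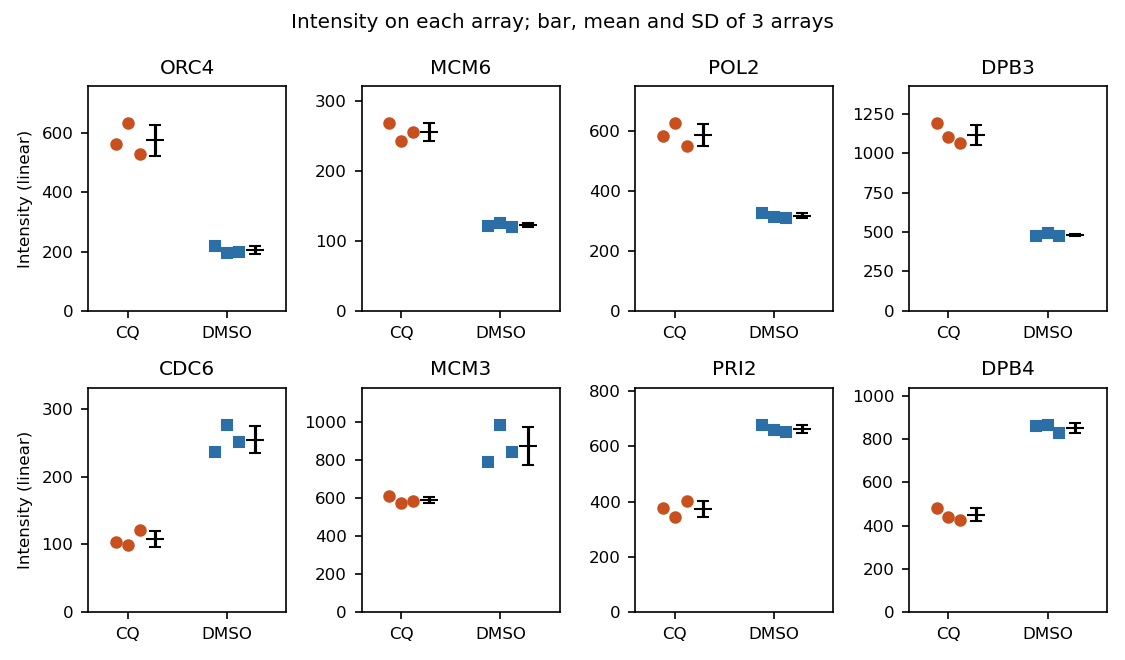
Linear intensity of 8 replication genes on each array, CQ left and DMSO right, with the mean and SD of 3 arrays beside the points; every axis starts at 0. ORC4, MCM6, POL2 and DPB3 in the upper row were higher on every CQ array, and CDC6, MCM3, PRI2 and DPB4 in the lower row were lower on every CQ array.

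Set side by side, the roles differed in their averages while overlapping gene by gene. Averaged over their genes and set against the DMSO mean, polymerase delta genes stood at 0.43, 0.50 and 0.53 on the 3 CQ arrays, helicase genes at 0.32, 0.25 and 0.33 and licensing genes at 0.34, 0.21 and 0.28. Polymerase epsilon genes stood at 0.38, 0.54 and 0.27, Okazaki maturation genes at 0.51, 0.28 and 0.56 and helicase activation genes at 0.21, 0.07 and 0.30. Single-strand binding genes stood at -0.06, 0.10 and -0.10. Clamp and loader genes stood at -0.07, -0.06 and -0.17, and polymerase alpha and primase genes at -0.33, -0.34 and -0.34. All genes of the arrays averaged 0.07, 0.03 and 0.05 on the same arrays. Median differences were 0.54 for licensing, 0.25 for the helicase, 0.34 for the 11 polymerase genes and -0.15 for the clamp and loader. With the coding-length trend removed these medians became 0.22, 0.03, 0.14 and -0.12, and with the 3' to 5' index in the model 0.70, 0.51, 0.13 and -0.36. The polymerase epsilon median went from 0.65 to 0.11 with the length trend removed and to 0.13 with the index. That of polymerase delta went from 0.63 to 0.26 and 0.38, and that of polymerase alpha and primase from -0.45 to -0.78 and -0.46. No test was made between roles.

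Replication genes next to each other in the R64 assembly formed 2 pairs, and the genes of each pair moved alike. RFC5 and POL30, which face each other with their 3' ends, both fell (-0.66 and -0.37). POL2 and ORC5, which lie in tandem on the same strand, both rose (0.85 and 0.93). The annotated spans of neither pair overlap, and with the length trend removed POL2 no longer followed ORC5, at -0.02 and 0.91.

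Iron-sulfur clusters are known in the catalytic subunits Pol1, Pol2 and Pol3, in the primase subunit Pri2, in the nuclease-helicase Dna2 and in the bypass polymerase Rev3. These genes were set side by side after their values were seen, and no count is drawn from them. DNA2 (YHR164C), which processes long flaps on Okazaki fragments, read 938, 717 and 859.6 with CQ and 167, 169.8 and 153 with DMSO. Its rise of 2.24 ± 0.11 (adjusted p = 2.46e-06) exceeded that of every one of the 44 genes. REV3 (YPL167C) read 627, 612 and 644 with CQ and 213, 208 and 194 with DMSO, a rise of 1.54 ± 0.07. With the coding-length trend removed DNA2 stood at 1.56 and REV3 at 0.86, beside -0.83 for POL1, -0.02 for POL2, 0.14 for POL3 and -0.85 for PRI2.

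Other genes of replication, from 7 lists outside the 44, comprised 47 measured genes, of which 25 rose, 12 fell and 10 did not pass, where over all genes 36.1% rose and 31.9% fell. With the coding-length trend removed 19 were higher and 17 lower, and with the 3' to 5' index in the model 15 and 11. Those settings gave 1673 higher and 1872 lower, and 1596 and 1408, over all 5449 genes. Of the 4 further initiation genes 3 rose and 1 fell: TAH11 (YJR046W), the gene of Cdt1, rose by 0.87 ± 0.13, and SLD7 (YOR060C), which encodes a partner of Sld3, fell with SLD3, by 1.28 on the log2 scale. With the 3' to 5' index in the model SLD7 was at -0.15 (adjusted p = 0.436) and did not pass. SLD7 read 297, 182 and 414 on the CQ arrays, all below the 694, 711 and 722 of the DMSO arrays, with CQ replicate 2 the lowest. Fork factors were higher in 7 of 9 cases with 0 lower; after DNA2 the largest difference was in CSM3 (YMR048W), of the fork protection complex, at 0.73 ± 0.10. With the coding-length trend removed, 3 fork factors were higher and 4 lower, and with the 3' to 5' index in the model 3 were higher and 1 lower.

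Alternative clamp loader subunits were higher in 2 of 5 cases, RAD24 (YER173W), which loads the checkpoint clamp, by 1.22 ± 0.08 and CTF18 (YMR078C), of the loader for cohesion, by 0.28 ± 0.09. The CTF18 call was lost in 6 of the 18 alternatives. The RAD24 values were 499, 523 and 528 with CQ and 233, 209.7 and 199 with DMSO. Of 4 ribonuclease H genes 2 fell and 1 rose: RNH203 (YLR154C) stood at -0.83 ± 0.10 and RNH202 (YDR279W) at -0.66 ± 0.07, both accessory subunits of RNase H2. Chromatin assembly genes were higher in 5 of 7 cases with 0 lower, ASF1 (YJL115W), a histone chaperone, by 1.07 ± 0.08 and POB3 (YML069W), of the FACT complex, by 0.90 ± 0.09. With arrays centred on their median 1 gene of that list was lower, and with the length trend removed 2. Over all genes 36.1% rose and 31.9% fell, and in those settings 2211 and 1872 of the 5449 were lower.

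Lesion bypass genes were higher in 6 of 9 cases and lower in 1, led by REV3 and by RAD30 (YDR419W), the gene of polymerase eta. RAD30 read 284, 263 and 327 with CQ and 91.4, 96.8 and 95.7 with DMSO, a rise of 1.47 ± 0.09. With the index in the model 3 of the 9 bypass genes were higher. Genes of deoxynucleotide supply went the other way, 8 of 9 lower and 1 higher, with a median of -0.51. Of the 9, 6 were lower with the length trend removed, and 6 with the index in the model. Beside the counts of both lists, 36.1% of all genes rose and 31.9% fell. Of all 5449 genes 1872 were lower with the length trend removed, and with the index 1596 were higher and 1408 lower. RNR1 (YER070W), the large subunit of ribonucleotide reductase, read 384, 248 and 309 with CQ and 626, 872 and 711 with DMSO (-1.20 ± 0.17), and RNR2 (YJL026W), the small subunit that holds iron, stood at -0.95 ± 0.10.

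**Figure D3:**
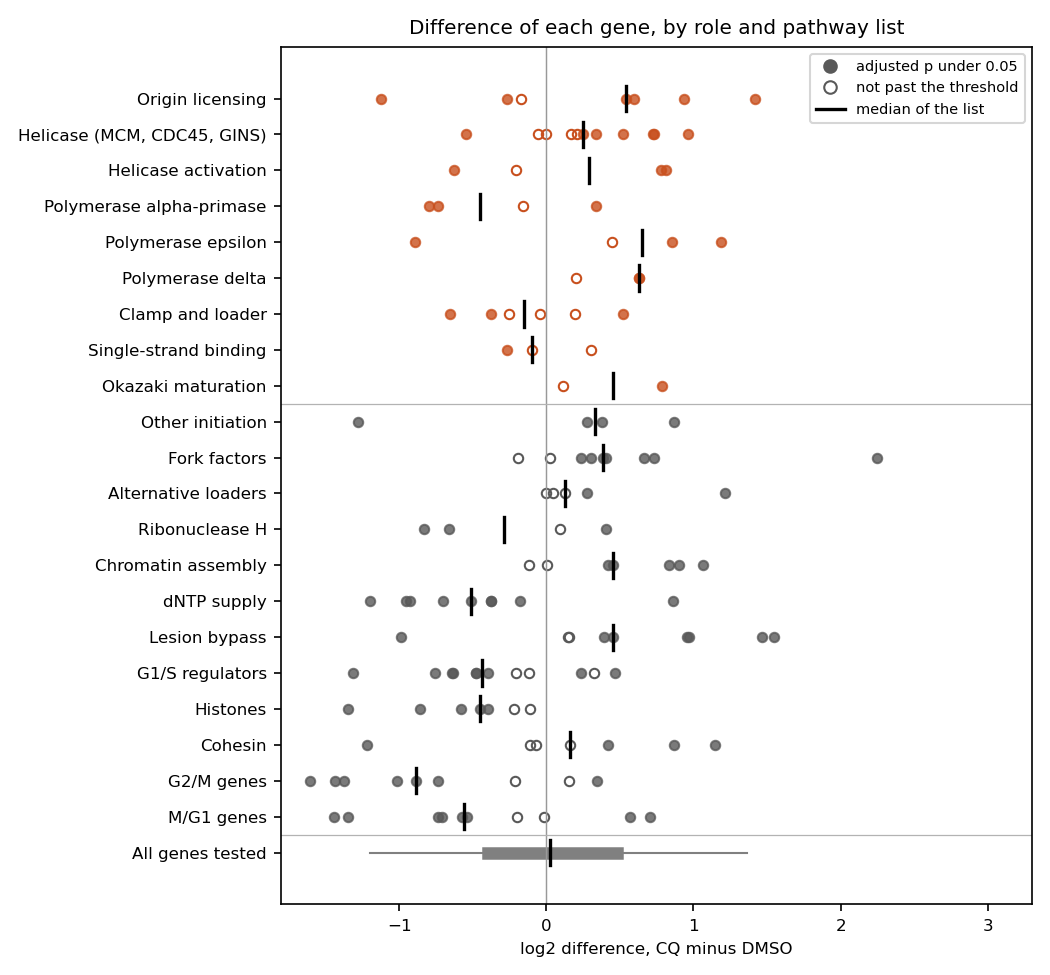
Log2 difference, CQ minus DMSO, of each gene by role (upper 9 rows, the replication genes) and in other lists of replication and of the cell cycle (grey); filled points passed the threshold, the black bar is the median, and the lowest row gives the 5th to 95th percentile, the quartiles and the median of all 5449 genes. Medians lie at 0.65 for polymerase epsilon and 0.63 for polymerase delta, and at -0.88 for G2/M genes. With the coding-length trend removed these medians are 0.11, 0.26 and -1.14, and with the 3' to 5' index in the model 0.13, 0.38 and -0.63.

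Genes of other cell cycle phases moved beside the replication genes, and their part in these differences was not tested. Beside their counts stand the shares over all genes, 36.1% risen and 31.9% fallen. Of 12 regulators of the G1 to S transition 7 fell and 2 rose, with a median of -0.44. NRM1 (YNR009W), a co-repressor that is itself a target of the factor MBF, was at -1.31 ± 0.13 and the G1 cyclin gene CLN2 (YPL256C) at -0.75 ± 0.13. Histone genes, copied into RNA in S phase, fell in 5 of 7 measured cases, with HTB2 (YBL002W) at -1.35 ± 0.16 and HTB1 (YDR224C) at -0.86 ± 0.08. With arrays centred on their median all 7 histone genes and 9 of the G1 to S regulators fell, but that centring also gave 1578 higher and 2211 lower over all genes. With the index in the model 5 G1 to S regulators were lower and 1 higher, with a median of -0.12. Over all genes 1408 were lower and 1596 higher in that setting. CLN2 was then at -0.21 (adjusted p = 0.247) and did not pass.

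Genes expressed at G2 and mitosis had a median of -0.88, with 6 of 9 lower and 1 higher. The shares over all genes were 31.9% lower and 36.1% higher. CLB2 (YPR119W), the main mitotic cyclin gene, stood at -1.61 ± 0.10, with 118, 117 and 144 on CQ arrays and 404, 447 and 396 on DMSO arrays, and the kinase gene KIN3 (YAR018C) at -1.44 ± 0.07. At the exit from mitosis 6 of 10 genes were lower and 2 higher, with FAR1 (YJL157C), an inhibitor of the G1 kinase, at -1.44 ± 0.10 and DSE2 (YHR143W), a daughter-cell wall gene, at -1.34 ± 0.11. Cohesin genes split, 3 higher, 1 lower and 3 not past the threshold: MCD1 (YDL003W), the ring subunit made in late G1, was at -1.22 ± 0.12 and SCC4 (YER147C), of the loader, at 1.15 ± 0.07. With the coding-length trend removed 1 cohesin gene was higher and 3 were lower, and over all genes 1673 were higher and 1872 lower.

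Coding length moved with the differences over the whole array. Genes in the longest of 4 classes of equal size, 1902 to 14733 bases, had a median difference of 0.35, and those in the shortest class, 51 to 756 bases, one of -0.09; across all 5449 genes Pearson's r with log2 length was 0.16, and across the 44 replication genes it was 0.09, given as descriptions of genes that share the same arrays. The replication genes were longer than the array at large, with a median of 1589 against 1236 bases, and 17 of the 44 were in the longest class. From the shortest class to the longest the medians of the replication genes were 0.32, 0.08, -0.17 and 0.25, from 6, 10, 11 and 17 genes. Those of all genes were -0.09, -0.10, 0.01 and 0.35, and the part of length was not tested. With the trend removed 16 of the 44 were higher and 12 lower, and the median over the 44 was 0.03. With the index as a covariate 17 were higher and 8 lower. Over all 5449 genes 1673 were higher and 1872 lower with the trend removed, with a median of -0.03, and 1596 and 1408 with the index.

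**Figure D4:**
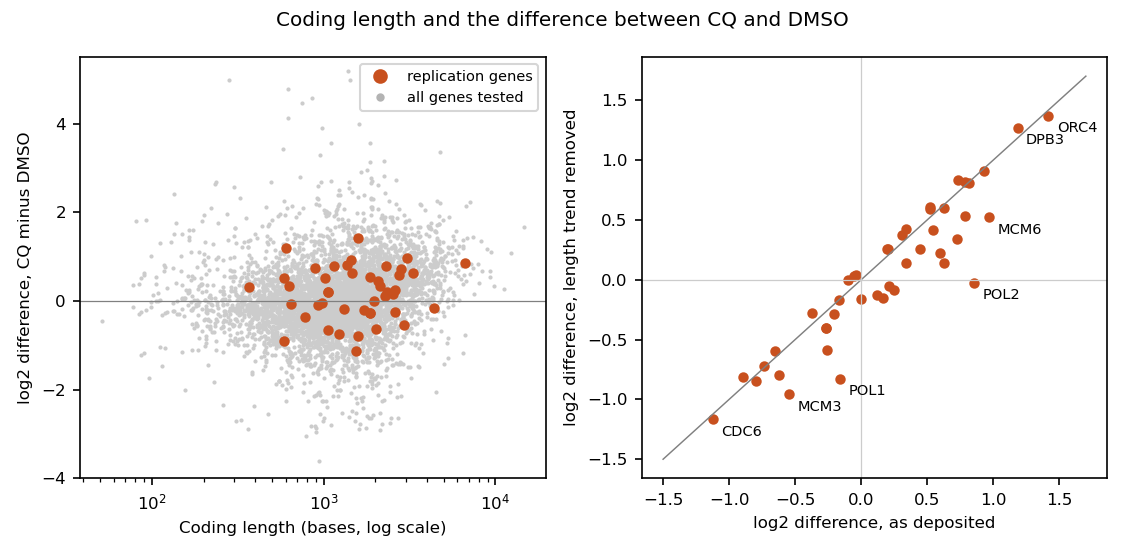
Left, log2 difference against coding length on a log scale for all 5449 genes (grey) and the 44 replication genes (colour); right, the difference of each replication gene as fitted and after removal of the length trend, with a line where both are equal. POL2 moves to -0.02 and POL1 to -0.83, while ORC4, DPB3 and CDC6 stay near the line.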

How the data were processed

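Per the labels' protocols, RNA was extracted with hot phenol and labelled as biotinylated cRNA for Affymetrix GeneChips. The values are the authors' deposited intensity per probe set and array on a linear scale; the sources used here do not give the summarising software or any scaling. Of 10928 probe sets, 5498 were paired with 1 S. cerevisiae gene by identifier, and the brightest probe set of each gene was kept, which gave 5449 genes. Every array difference is relative, since no array was tied to a number of cells.

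Differences in log2(intensity + 16), computed here from the deposited intensity values, were fitted with limma 3.58.1 (lmFit, eBayes, two-sided) in R 4.3.3 on 3 CQ and 3 DMSO arrays, with Benjamini-Hochberg adjustment over all genes. The fit was tested on simulated data. Values after ± are SD over arrays for intensities and standard errors for log2 differences, and the number of arrays limits the precision. Lists were described by counts and medians with no test. The coding-length trend (gene length in the R64 annotation) was a lowess curve. The alternatives were 3 scalings, 2 pseudocounts, 2 filters, other probe set and variance choices, the replicate block, the 3' to 5' index, the length trend and leaving out each array; calls were compared over 18 of them, without the filter on the dimmest 40%, which left 8 replication genes. Every array value was given for the 2 genes of each role with the largest difference and for POL30, with others added, and the 2 largest of each other list were named. The members and lists were chosen with earlier results of these data known. No probe set was named for HHF2. The labels call the samples biological replicates and give no batches. Plots used matplotlib 3.10.9.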

Additional observations from a re-analysis of the deposited data

How the results depend on the processing

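The counts of replication genes were 16 to 20 higher and 7 to 14 lower over 18 alternatives, against 19 and 10; without the dimmest 40% of genes 8 of the 44 remained, of which 4 were higher and 2 lower, since fewer genes were tested. Leaving out 1 array at a time gave 17 to 20 higher and 7 to 9 lower. Centring on the array median gave 16 higher and 14 lower, and over all genes 1578 higher and 2211 lower, against 1969 and 1739. Of 1238 values of single genes under an alternative, 1146 kept direction and side of the threshold. Another 46 lost the call, 23 gained one and 23 changed sign. Those values include the genes named from other lists, chosen there for their large differences, and the filter on the dimmest 40%. They are therefore not a measure for the 44 genes alone.

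The changes of sign were as follows, and the cause was not tested. With the 3' to 5' index in the model they were ORC2 (0.041), CDC45 (0.51), PSF1 (-0.034), DPB2 (-0.41), RFC1 (0.42), RFC2 (-0.25) and RFA3 (-0.14). With the coding-length trend removed they were MCM2 (-0.090), MCM5 (-0.052), MCM7 (-0.16), PSF2 (0.029), POL2 (-0.024), RFC4 (0.039) and CDC9 (-0.13). Quantile normalization turned CDC45 (0.023) and CDC9 (-0.0025), median centring turned CDC9 (-0.020), and a pseudocount of 64 turned CDC45 (0.0012). Leaving out 1 array at a time gave PSF2 values from -0.13 to 0.016, CDC45 values from -0.14 to 0.13 and RFC4 values from -0.15 to 0.085, with sign changes without CQ replicate 1 or DMSO replicate 1 for PSF2, without CQ replicate 2 or DMSO replicate 1 for CDC45 and without CQ replicate 3 for RFC4. Apart from ORC2, PSF1, MCM2 and POL2, none of these genes had passed in the fit as reported.

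With the replicate number as a block 20 genes were higher and 10 lower, RFA3 being the gene added. Same-numbered arrays deviated together with correlations of 0.055, 0.12 and 0.14; each array correlated best with its own number, which is a hint from the data and not part of the design. Every replication gene was brighter than background on every array, although most were among the dimmest 40% of genes.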
